A study of Mus musculus with 3 samples.

Results

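Macrophages bind and take up oxidised lipoproteins, microbes, glycoproteins and dying cells through surface receptors that belong to several unrelated families. The genes described here are 10 of these scavenger and engulfment receptors, chosen by symbol as Msr1, Marco, Cd36, Mrc1, Cd68, Scarb1, Mertk, Axl, Stab1 and Cd163, out of 55536 annotated genes in the tables, of which 22028 are protein-coding. Class A scavenger receptors (Msr1 and Marco) are collagen-like trimers that bind modified lipoproteins and bacteria. Class B receptors (Cd36 and Scarb1) are double-pass membrane proteins that handle fatty acids and lipoproteins. The TAM kinases Mertk and Axl bind phosphatidylserine on dying cells through the bridging proteins Gas6 and protein S, and also restrain Toll-like receptor signalling. The mannose receptor (Mrc1), stabilin 1 (Stab1) and the haemoglobin receptor Cd163 clear glycoproteins and haemoglobin complexes and are widely used as markers of alternatively activated or resident macrophages, while Cd68 (macrosialin) lies mainly in late endosomes and lysosomes.

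The libraries hold RNA from the cytosol of C57BL/6J mouse bone marrow-derived macrophages that had received lipid A, the membrane anchor of bacterial endotoxin and a Toll-like receptor 4 agonist, at 100 ng/ml for 60 min. Total RNA was depleted of ribosomal RNA, with 1 µg used per library. There is 1 group of 3 libraries, called replicates 1, 2 and 3, with 64110863, 72057046 and 69345880 expected counts. The labels give each library its own biosample but name only the strain as donor. The limma p-values therefore rest in part on a spread between libraries that may be technical. No p-value here can be read as covering separate animals. With no unstimulated cells and no nuclear fraction analysed here, the values are levels in the stimulated cytosol, and neither induction nor repression by lipid A was measured. In bulk RNA, fewer cells that express a gene and less RNA per cell cannot be told apart.

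The cell type given by the labels was checked first. All 10 macrophage markers were called above the median gene, with Lyz2 (lysozyme) at 5032 ± 2089 TPM and Csf1r, the receptor that drives macrophage growth, at 241 ± 85.8 TPM (TPM is a length-scaled level with a fixed total per library, mean ± SD, n = 3, as for all TPM values below). Others were Itgam at 21.7 TPM, Mpeg1 at 632 TPM and Tyrobp at 787 TPM, with Fcgr1, Spi1, Adgre1 and Cd14 between Itgam and Mpeg1. The summed TPM of those 10 markers was 5372 to 10527 per library. For other cell types it was 13.1 to 24.3 over 10 endothelial markers, 25.5 to 32.5 over 8 neutrophil markers, 1.72 to 2.77 over 7 dendritic cell markers and 0.06 to 0.14 over 6 stromal markers. Endothelial cells also carry Cd36, Scarb1 and Stab1, but their defining genes Pecam1 and Cdh5 stood at 0.177 and 0.123 TPM. Of the endothelial list, Vwf reached 9.18 ± 3.30 TPM, Stab2 6.52 ± 1.57 TPM and Kdr 2.28 ± 1.05 TPM. Of the neutrophil list, S100a9 was at 15.9 ± 1.96 TPM, S100a8 at 10.1 ± 1.33 TPM and Ngp at 1.92 ± 0.307 TPM, and of the dendritic cell list Batf3 was at 1.25 ± 0.336 TPM. Platelets carry Cd36 as well: of 7 platelet markers, 6 were under 1 TPM, and Pf4, which macrophages can also express, was at 189, 125 and 202 TPM. The part of such cells in the receptor levels was not tested.

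The receptors spanned 1118-fold in mean level, from Cd68 at 693 ± 143 TPM to Cd163 at 0.62 ± 0.131 TPM, with a median of 40.3 TPM over the 10 genes. Because a single short RNA, 7SL, took 57.1, 69.6 and 62.2% of TPM in the 3 libraries, each level was also expressed against the library's own median protein-coding gene, which stood at 9.08, 5.76 and 6.86 TPM. A gene was called when its log2 difference from that median lay beyond a band of 1 in either direction (limma's treat, adjusted p at or under 0.05, over 9123 protein-coding genes of at least 1 TPM on average). In that test 6 of the 9 receptors tested were called above, where 26.3% of all tested genes were, and 1 was called below, where 24.5% of all tested genes were. The 6 were Cd68, Cd36, Stab1, Mrc1, Msr1 and Mertk, and the 1 below was Marco. Scarb1 and Axl were not called, and Cd163 lay under the 1 TPM needed to enter the test, whereas Marco entered it narrowly with a mean of 1.01 TPM.

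**Figure D1:**
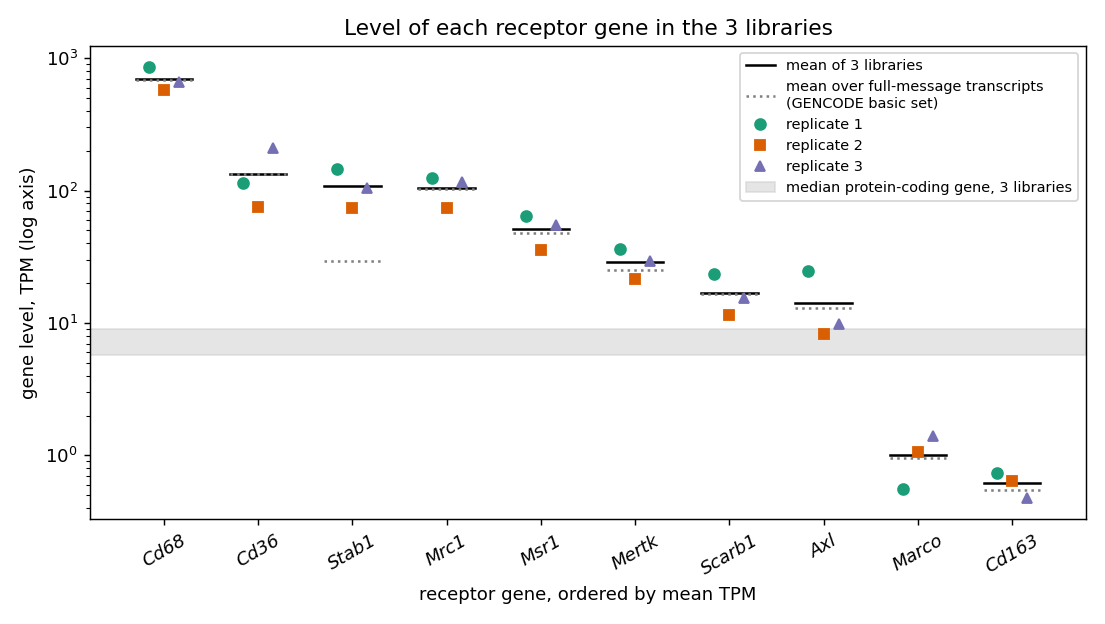
Level of each receptor gene in TPM (log axis), with 1 symbol per replicate, a solid bar at the mean of 3 libraries and a dotted bar at the mean over transcripts of the GENCODE basic set. Cd68 lies above all others in every library, 8 genes lie above 8 TPM in every library, and Marco and Cd163 lie under 1.5 TPM. For Stab1 the dotted bar, at 29.6 TPM, lies well under the solid one.

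Among the class A receptors, Msr1 was abundant and Marco was near the lower limit of what was tested. Msr1 (ENSMUSG00000025044.16, mm10 chr8:39581685-39642673, minus strand) stood at 64.0, 35.7 and 55.1 TPM in replicates 1, 2 and 3. In log2 terms it lay 2.80 ± 0.09 above the median gene (SE, limma adjusted p = 3.1e-06). Marco, which binds bacteria and particles and is typical of alveolar and marginal zone macrophages (ENSMUSG00000026390.7, chr1:120474538-120505024, minus strand), stood at 0.56, 1.07 and 1.41 TPM. Its counts were 87, 233 and 310, or 1.36 (exact Poisson 95% interval 1.09 to 1.68), 3.24 (2.83 to 3.68) and 4.47 (3.99 to 5.0) CPM (counts scaled to library size). Replicate 1 was thus the lowest, and none of the 3 intervals overlapped another. All 3 lay far above the 0.0417 to 0.0469 CPM that a count of 0 allows. These intervals and limits cover counting error only. Marco was 2.78 below the median gene in log2 terms (-2.78 ± 0.30, limma adjusted p = 0.0013). This call was lost with no filter on low values (-1.21, limma adjusted p = 0.25), and Marco fell out of the test with the second transcript table, over basic transcripts and at 5 TPM. Within each library Msr1 exceeded Marco, by 6.60, 4.94 and 5.19 on the log2(TPM + 0.1) scale.

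Of the class B receptors, Cd36 was the second most abundant receptor and also the one whose level depended most on the library among the abundant ones. Cd36 (ENSMUSG00000002944.15, chr5:17781690-17888801, minus strand), which takes up long-chain fatty acids and oxidised lipoprotein, stood at 113, 75.4 and 208 TPM. Replicate 3 was the highest, while replicates 1 and 2 were close to each other once set against the median gene, at 3.63, 3.69 and 4.903 on the log2 scale for the 3 libraries (mean 4.07 ± 0.25 SE, limma adjusted p = 2.9e-05). Scarb1 encodes SR-BI, the receptor for high-density lipoprotein (ENSMUSG00000037936.15, chr5:125277087-125341094, minus strand), and stood at 23.4, 11.6 and 15.3 TPM. Its mean of 1.16 ± 0.08 above the median gene was just beyond the band and was not called (limma adjusted p = 0.082). It was called without replicate 2 (1.25, limma adjusted p = 0.034) and when TPM was summed over GENCODE basic transcripts only (1.32, limma adjusted p = 0.0068). Cd36 exceeded Scarb1 in all 3 libraries, by 2.28, 2.70 and 3.76 on the log2(TPM + 0.1) scale.

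Of the TAM kinases, Mertk was the more abundant in every library, and Axl was raised in replicate 1. Mertk (ENSMUSG00000014361.5, chr2:128698956-128802894, plus strand), the main TAM kinase for uptake of apoptotic cells by macrophages, stood at 36.4, 21.4 and 29.3 TPM. It was 1.98 ± 0.07 above the median gene (limma adjusted p = 1.2e-05), and this call was lost when only genes of at least 5 TPM were tested (1.06, limma adjusted p = 0.57). Axl (ENSMUSG00000002602.16, chr7:25757273-25788705, minus strand), whose ligand is Gas6, stood at 24.7, 8.23 and 9.86 TPM. Against the median gene replicate 1 was at 1.43, while replicates 2 and 3 were at 0.51 and 0.52, and the mean of 0.82 ± 0.18 was not called (limma adjusted p = 1). When only genes of at least 5 TPM were tested the mean for Axl was -0.11, because the median gene of that set is higher. The Mertk to Axl difference was accordingly smaller in replicate 1, at 0.56, than in replicates 2 and 3, at 1.37 and 1.56 on the log2(TPM + 0.1) scale. The remaining TAM kinase, Tyro3, was at 0.32, 0.1 and 0.14 TPM (a gene singled out with its values known).

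Among the markers of alternatively activated or resident macrophages, Mrc1 was high, and Cd163 had the lowest mean TPM of the 10 receptors in the gene table. Mrc1 (ENSMUSG00000026712.3, chr2:14229392-14332057, plus strand), which binds mannosylated glycoproteins, stood at 124, 73.6 and 116 TPM, 3.83 ± 0.10 above the median gene (limma adjusted p = 6.9e-07). Cd163 (ENSMUSG00000008845.9, chr6:124304656-124330527, plus strand) stood at 0.74, 0.64 and 0.48 TPM from counts of 269, 382 and 248. These counts correspond to 4.21 (exact Poisson 95% interval 3.72 to 4.74), 5.31 (4.79 to 5.87) and 3.58 (3.15 to 4.05) CPM, so its RNA was detected in every library. The second transcript table gave Cd163 counts of 898, 1146 and 993, a total 3.38 times that of the gene table, and a mean TPM of 0.814; the cause was not tested. In that table Marco was lower, at 0.542 TPM, as it was in mean CPM of the gene table, at 3.02 against 4.36 for Cd163, and in TPM of replicate 1. On the log2(TPM + 0.1) scale the excess of Mrc1 over Cd163 was 7.21, 6.64 and 7.65.

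Stab1 and Cd68 complete the set. Stab1 (ENSMUSG00000042286.13, chr14:31139013-31168641, minus strand), a large multidomain receptor that clears acetylated lipoprotein and matrix fragments, stood at 145, 74.3 and 104 TPM. Its level was 3.85 ± 0.09 above the median gene (limma adjusted p = 4.1e-07). Most of this TPM came from transcripts other than the full-length message, as described below. Cd68 (ENSMUSG00000018774.13, chr11:69664213-69666153, minus strand), a heavily glycosylated member of the lysosome membrane protein family, stood at 851, 572 and 657 TPM. At 6.57 ± 0.10 above the median gene (limma adjusted p = 2.1e-07), it varied less between libraries than its TPM values do: against the median gene the 3 libraries were at 6.53, 6.61 and 6.56.

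The 4 differences between related receptors, Mertk over Axl (1.16 ± 0.53, SD, n = 3), Cd36 over Scarb1 (2.91 ± 0.76), Msr1 over Marco (5.58 ± 0.90) and Mrc1 over Cd163 (7.17 ± 0.51), had the same sign in 3 of 3 libraries. An exact sign-flip permutation test, 2-sided, gave p = 0.25 for each, which is the smallest that 3 libraries allow, and 0.25 after Benjamini-Hochberg adjustment over the 4. In the order of all 10 receptors, 4 neighbouring pairs changed places between libraries. These were Cd36 and Stab1 (0.22 ± 0.70 on the log2 scale), Stab1 and Mrc1 (0.03 ± 0.19), Scarb1 and Axl (0.34 ± 0.38), and Marco and Cd163 (0.56 ± 0.87), with the first of each pair higher in 2 of 3 libraries. The other steps kept their sign in 3 of 3 libraries: Cd68 over Cd36 by 2.50 ± 0.72, Mrc1 over Msr1 by 1.02 ± 0.06, Msr1 over Mertk by 0.82 ± 0.09, Mertk over Scarb1 by 0.82 ± 0.16 and Axl over Marco by 3.60 ± 1.42.

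Variation between libraries, set against the trend for genes of like abundance, separated 3 receptors from the rest. It was expressed as edgeR's tagwise biological coefficient of variation (BCV), an estimate of the relative spread between libraries beyond counting error. This estimate draws each gene toward the trend for genes of like abundance. With 3 libraries, nearness to the trend and the size of each BCV are therefore set in part by the method. The median BCV was 0.130 over the 10 receptors and 0.122 over the 13026 genes with enough counts, and 7 of the 10 lay above the trend for genes of like abundance, as did 21.5% of all genes. BCV was 0.396 for Marco (trend 0.239), 0.326 for Cd36 (trend 0.127) and 0.227 for Axl (trend 0.102). With DESeq2's dispersion Cd36 came before Marco, at 0.547 against 0.372. The other 7 ranged from 0.0992 for Mertk to 0.219 for Cd163, which was near Axl but close to its own trend of 0.213.

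**Figure D2:**
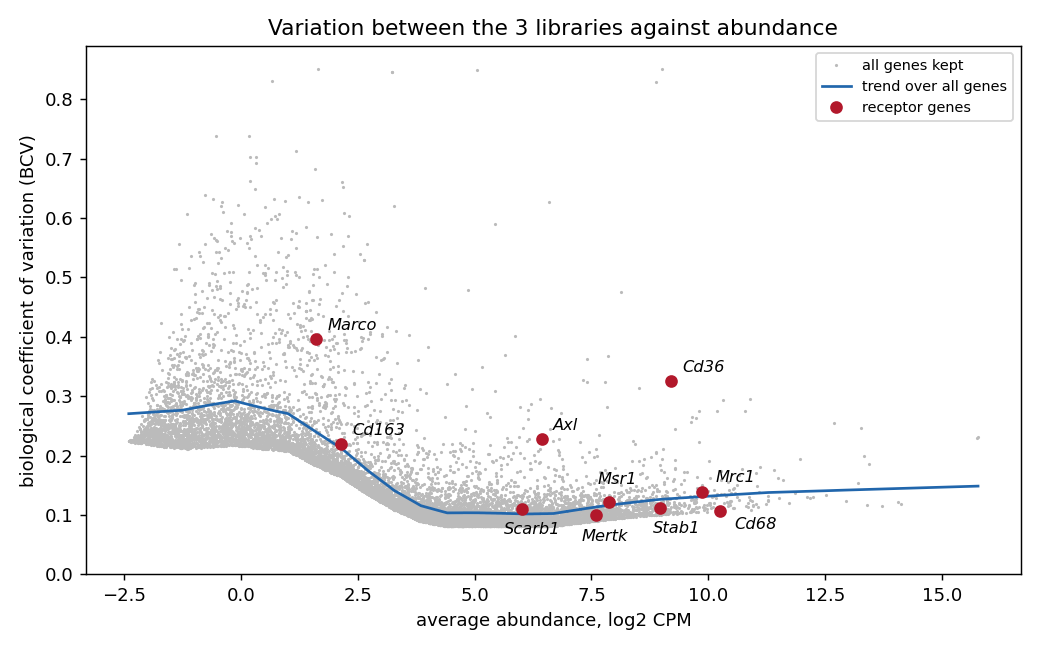
BCV between the 3 libraries against average abundance in log2 CPM, with every gene kept as a grey dot, the trend over all genes as a line and the receptors as labelled red points. Marco, Cd36 and Axl stand clear of the trend, at 0.396, 0.326 and 0.227, while the other receptors lie close to it.

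Each of these 3 values fell most when a single library was left out, replicate 3 for Cd36 and replicate 1 for Axl and Marco. That library was the one farthest from the others, so a fall follows in part from the choice. The BCV without a library was likewise drawn toward the trend for genes of like abundance. After TMM scaling, Cd36 was at 391, 414 and 960 CPM in replicates 1, 2 and 3, so replicate 3 was 2.32 times the next highest. Without replicate 3 its BCV was 0.106. Axl was at 123, 66.2 and 70.0 CPM, and without replicate 1 its BCV was 0.0954. Marco was at 1.32, 3.39 and 4.39 CPM, and replicates 2 and 3 also differed beyond counting error. Its BCV was 0.202 without replicate 1, its lowest library, which lay under the values of Cd36 (0.268) and Cd163 (0.227) without that library. The library that was high for Axl was therefore low for Marco, and the library that was high for Cd36 was ordinary for Axl.

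**Figure D3:**
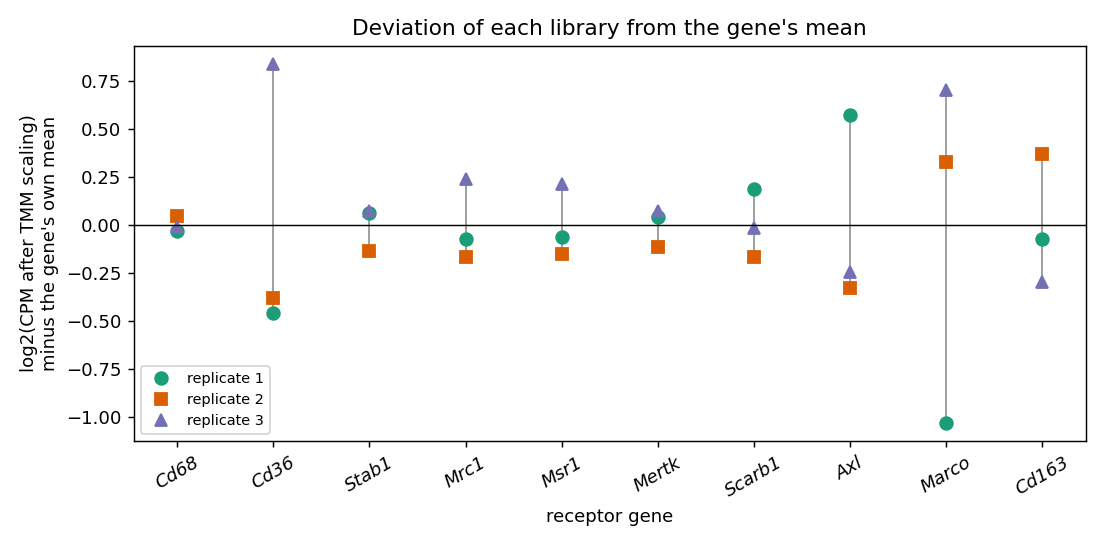
Deviation of each replicate from the gene's own mean, on the log2 scale of CPM after TMM scaling, for the 10 receptors in order of TPM. Replicate 3 is alone at the top for Cd36, replicate 1 is alone at the top for Axl and alone at the bottom for Marco, and the 3 replicates of Cd68 nearly coincide.

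Which transcripts make up each receptor's level was read from the percent of gene TPM that the authors' transcript table assigns to each transcript, with no test. For Mrc1, Cd68 and Marco a single coding transcript held 98.9, 98.2 and 94.6% on average. For Stab1 no transcript held most of the gene TPM in the transcript table. Stab1-201, the full-length message of 7999 bases and 69 exons that encodes 2571 residues, held 26.5, 28.6 and 27.8% of gene TPM. The leading transcript by TPM was Stab1-202, a noncoding fragment of 242 bases, with 28.8, 30.04 and 31.0%. By counts the order was the opposite, as Stab1-201 held 78.3% of the gene's expected counts and Stab1-202 0.548%, from 199, 176 and 189 counts. In the second table Stab1-201 also led by TPM, with 43.2, 55.2 and 57.2%, against 20.3, 8.09 and 3.92% for Stab1-202.

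TPM divides counts by effective length, which was 52.7, 53.1 and 45.5 bases for Stab1-202 and 7792, 7791 and 7781 bases for Stab1-201. A further fragment of 413 bases, Stab1-207, took 14.5 ± 3.10% of TPM from 1.08% of counts. Over GENCODE basic transcripts alone Stab1 stood at 38.4, 21.3 and 29.0 TPM (29.6 ± 8.59), which is 27.4% of its gene TPM and places it between Msr1 and Mertk. TPM in the second transcript table lay on a lower scale (Cd68 at 296 rather than 693 TPM), with Stab1 at 26.7 ± 5.75 TPM. There it was level with Msr1, which was higher in 2 of 3 libraries (0.03 ± 0.24 on the log2 scale). It exceeded Mertk in 3 of 3. Against the median gene Stab1 was at 2.17 over basic transcripts and 2.61 in the second table. The 9 annotated retained-intron transcripts of Stab1 held 19.9 ± 0.673% of its counts (14.5 ± 0.431% in the second table).

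**Figure D4:**
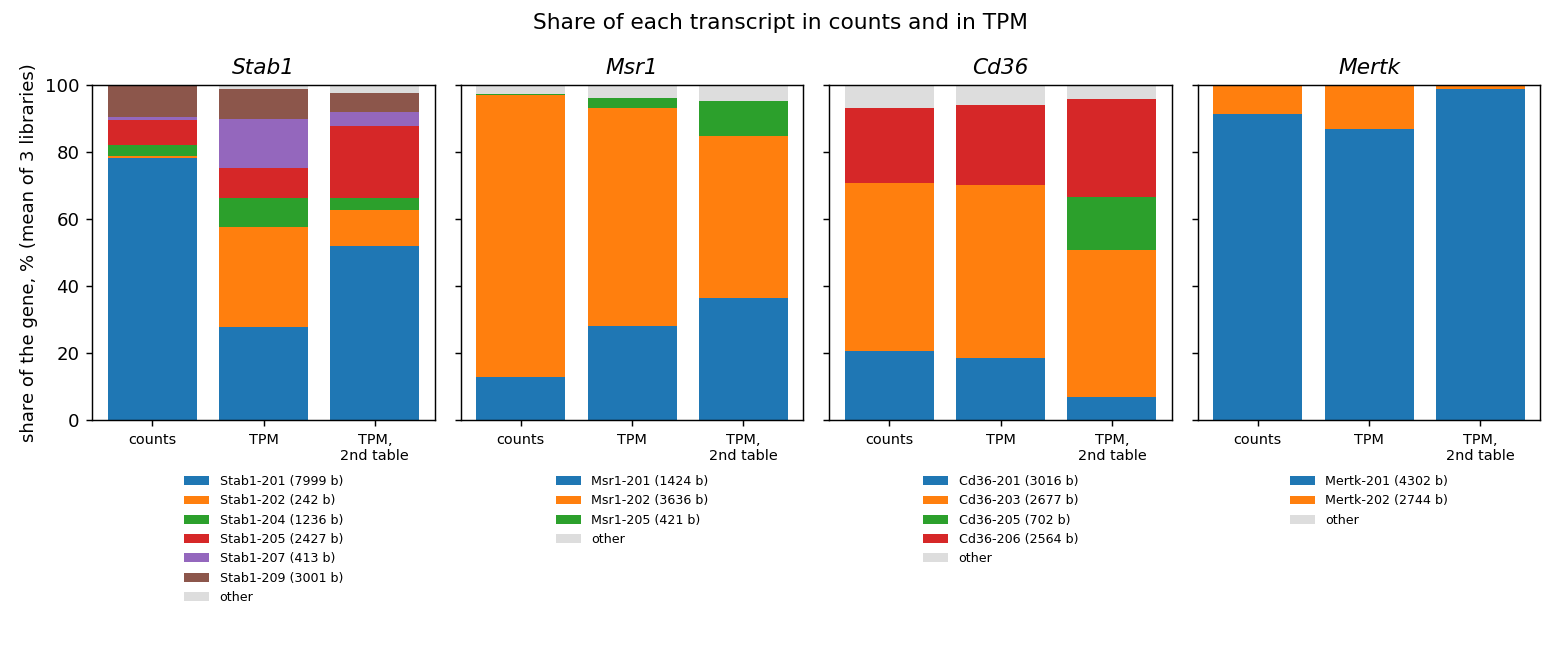
Share of each transcript in the gene's expected counts, in its TPM and in its TPM of the second transcript table, as mean percent of 3 libraries for Stab1, Msr1, Cd36 and Mertk, with transcript length in bases (b). Stab1-202 fills 0.548% of the counts but 29.9% of TPM, and 10.8% of TPM in the second table. Mertk-202 falls from 13.2% of TPM to 1.21% in the second table.

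Cd36 messages began at widely separated starts. Of its full-length transcripts, Cd36-203 starts farthest upstream and held 54.7, 49.8 and 50.4% of gene TPM. Cd36-206 and Cd36-201, which start near the coding exons, held 23.9 ± 1.64 and 18.5 ± 3.85%. Grouped by start, the distal region (chr5:17888747-17888801) held 51.6 ± 2.67%, the proximal region 53.1 kb downstream (chr5:17835696-17835717) held 42.4 ± 2.21%, and a middle region 14.1 kb upstream of the proximal one held 6.01 ± 0.49%. The second transcript table gave 59.6 ± 2.90, 36.4 ± 2.85 and 4.07% for the same regions, so distal starts led in both. Its distal share includes 15.7% from the short transcript Cd36-205, and Cd36-203 alone held 43.9% there. The high Cd36 level of replicate 3 came with no shift between starts, as its distal share of 50.4% lay between those of replicates 1 and 2. The 5 full-length Cd36 transcripts share 1 coding sequence of 472 codons. The short transcript Cd36-205 had 0 counts in the transcript table and 728, 1530 and 2372 in the second table; the cause was not tested.

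Msr1, Scarb1 and Axl each produced coding transcripts that differ in the protein they encode. Their sequences are shown where the coding bases of each pair of transcripts differ. The transcripts also differ outside the coding sequence, so their shares do not rest on these bases alone. The sequences are given 5′ to 3′ on the coding strand from GENCODE M21 (mm10, all minus strand). Coding bases shared by the pair are in lower case, and bases that are coding in only 1 transcript of the pair are in capitals. Only coding bases were compared, so bases in capitals can be untranslated in the other transcript, as for Scarb1-202.
Msr1-201 (first 270 of 323 own coding bases, in exons between chr8:39581732-39589478): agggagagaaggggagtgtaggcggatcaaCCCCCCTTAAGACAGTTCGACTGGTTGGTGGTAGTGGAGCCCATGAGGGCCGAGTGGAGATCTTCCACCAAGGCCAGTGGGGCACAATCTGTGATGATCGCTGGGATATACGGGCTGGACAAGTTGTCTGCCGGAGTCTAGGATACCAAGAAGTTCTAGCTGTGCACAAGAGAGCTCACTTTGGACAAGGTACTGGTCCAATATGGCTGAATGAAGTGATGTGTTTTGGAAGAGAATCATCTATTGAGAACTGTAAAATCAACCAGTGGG
Msr1-202 (its 11 own coding bases, chr8:39605972-39605982, to the stop): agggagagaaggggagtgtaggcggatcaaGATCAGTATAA
Scarb1-201 (its 129 own coding bases, chr5:125281105-125281233, to the stop): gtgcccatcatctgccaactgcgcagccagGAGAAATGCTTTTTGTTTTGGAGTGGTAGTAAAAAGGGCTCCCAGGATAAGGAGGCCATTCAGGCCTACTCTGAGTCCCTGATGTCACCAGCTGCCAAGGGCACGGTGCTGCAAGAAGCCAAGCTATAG
Scarb1-202 (its 120 own coding bases, chr5:125277746-125277865, to the stop): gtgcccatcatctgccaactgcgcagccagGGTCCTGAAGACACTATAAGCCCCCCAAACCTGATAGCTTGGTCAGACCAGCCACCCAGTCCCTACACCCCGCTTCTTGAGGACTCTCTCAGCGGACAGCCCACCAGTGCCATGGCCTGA
Axl-201 (an insert of 27 coding bases, chr7:25773099-25773125): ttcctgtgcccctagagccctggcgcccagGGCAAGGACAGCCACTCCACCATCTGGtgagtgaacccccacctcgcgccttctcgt
Axl-202 (no insert): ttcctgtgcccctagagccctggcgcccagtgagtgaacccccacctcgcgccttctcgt

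For Msr1 the shorter coding sequence led. Msr1-202 encodes 354 residues and ends soon after the collagen-like part, as the type II receptor does, and it held 59.9, 68.6 and 66.3% of gene TPM. Msr1-201 encodes 458 residues, including the scavenger receptor cysteine-rich domain of the type I receptor, and held 29.99, 26.9 and 27.7%. Msr1-202 was ahead in all 3 libraries and, at 48.2% against 36.5% on average, in the second table too. Its printed sequence leaves the shared bases just before the capitals and reaches a stop codon within them.

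For Scarb1 and Axl 1 coding form held most of the gene. Scarb1-201, which encodes the SR-BI tail of 509 residues in all, held 86.5 ± 0.571% of gene TPM, and Scarb1-202, which encodes the alternative SR-BII tail (506 residues in all), held 12.6 ± 1.14%. In the second table the shares were 87.9 and 11.0%. Axl-201, with the 27-base insert shown above, held 85.7 ± 3.35%, and Axl-202, without it, held 6.84 ± 0.468% (72.1 and 13.0% in the second table). Axl-202 falls under the share of 10% set for naming transcripts and was singled out with its values known. The insert keeps the reading frame, since the forms encode 888 and 879 residues.

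Mertk and Cd163 had shares on which the tables or libraries differed. Mertk-201, the only coding transcript of Mertk, held 86.8 ± 5.24%, and the noncoding Mertk-202 held 7.50, 14.4 and 17.8% in the transcript table but 1.21% on average in the second. For Cd163, which encodes receptor tails of different length, Cd163-201 held 83.1, 60.2 and 68.7% and Cd163-202 6.71, 27.1 and 18.8%. The Cd163 shares rest on few counts, 18.95, 109.7 and 49.3 for Cd163-202, and spread more between libraries than those of any abundant receptor named here. The retained-intron transcript Cd163-203 held 11.8% (2.78% in the second table).

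Promoter sequence was available for 8 of the 10 receptors (RefSeq, GRCm38.p6, 250 bases before to 50 after the annotated start). The PU.1 core GAGGAA, searched on both strands, stood in 5 of the 8, where 28.3% of 32851 promoters hold it. The AP-1 letters TGANTCA stood in 1 of the 8, where 7.81% of promoters hold them, and TATAAA stood in 0 of the 8, where 13.6% do. A match describes the letters only. The windows of the receptors with the highest and the lowest mean TPM in the gene table are shown with motif letters in capitals, as the ends of that range.
Cd68 (chr11:69666121-69666420, minus strand): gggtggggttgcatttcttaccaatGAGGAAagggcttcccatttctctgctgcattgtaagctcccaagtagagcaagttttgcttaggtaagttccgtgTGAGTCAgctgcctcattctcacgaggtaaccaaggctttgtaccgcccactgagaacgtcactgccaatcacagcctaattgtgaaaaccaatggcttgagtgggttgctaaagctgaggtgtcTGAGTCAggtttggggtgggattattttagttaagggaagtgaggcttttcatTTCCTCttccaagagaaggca
Cd163 (chr6:124304401-124304700, plus strand): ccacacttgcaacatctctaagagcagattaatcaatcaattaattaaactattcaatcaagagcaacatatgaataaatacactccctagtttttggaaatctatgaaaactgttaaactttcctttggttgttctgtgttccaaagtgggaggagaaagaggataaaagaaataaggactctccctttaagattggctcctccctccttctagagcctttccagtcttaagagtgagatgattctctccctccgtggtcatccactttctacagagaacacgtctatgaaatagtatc

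The Cd68 window holds 2 AP-1 matches, at -149 and -24 counted from the annotated start as 0, and 2 PU.1 matches, at -225 and 29. The Cd163 window holds none of the 3 motifs. Mrc1 has 3 PU.1 matches, at -180, -167 and -35. The RefSeq start of Cd36 lies 179 to 200 bases upstream of its proximal GENCODE starts, and its window covers neither these nor the distal start that led its transcripts.

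The partners with which these receptors work were described from lists of related genes. For every list here, the share of all tested genes to set beside the calls is 26.3% above and 24.5% below. Listed genes that are under 1 TPM or not protein-coding did not enter that test. Of 10 bridging and opsonising ligands, 8 were called above the median gene (limma), 1 was not called and 1 was under 1 TPM, with a median log2 level of 4.47 above the median gene for those tested. Gas6, the ligand of Axl and Mertk, was at 197 ± 49.6 TPM, more than either kinase in every library. Complement C1qb and C1qc were at 727 ± 258 and 505 ± 167 TPM, and annexin Anxa5, which covers phosphatidylserine, at 235 ± 44.9 TPM. Pros1, which encodes protein S, stood at 4.16, 1.78 and 3.37 TPM and was not called (also singled out with its values known).

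Other receptors for uptake gave mixed calls. Of 16 other engulfment receptors, 9 were called above and 1 below (limma), 2 were not called and 4 were under 1 TPM, with a median log2 level of 1.63 for the 12 tested. The leading ones were the lipid receptor Trem2 at 300 ± 79.3 TPM, the integrin chain Itgb2 at 95.9 ± 24.4 TPM, Cd93 at 76.3 ± 19.7 TPM and Itgb5 at 39.0 ± 13.5 TPM. Of 15 other scavenger receptors, 5 were called above, 1 below and 3 were not called, while 5 were under 1 TPM and Clec7a (128 ± 41.9 TPM) was left out because its gene is not annotated as protein-coding. The most abundant were the lipopolysaccharide co-receptor Cd14 at 485 ± 77.3 TPM, Cd5l at 199 ± 67.7 TPM and Lrp1, a large endocytic receptor, at 140 ± 39.3 TPM.

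Of the genes downstream of uptake, those of the lysosome were high throughout and those of engulfment gave mixed calls. Of 18 genes of the engulfment machinery, 9 were called above and 2 below (limma), 4 were not called and 3 were under 1 TPM (median log2 level of those tested 1.99), with the cholesterol exporter Abca1 at 109 ± 21.4 TPM. The adaptor Gulp1 had 0 counts in all 3 gene tables and a mean of 0.0607 TPM in the second transcript table. All 9 lysosome partners were called above (median log2 level 4.85), with the proteases Ctsd and Ctsb at 3389 ± 764 and 2503 ± 1004 TPM, Lamp1 at 633 ± 239 TPM and the lipase Lipa at 235 ± 72.6 TPM. Of 8 cofactors 6 were called above, 1 was not called and 1 was under 1 TPM, led by Apoe, the lipoprotein ligand, at 1723 ± 323 TPM and Pltp at 180 ± 47.2 TPM. The haem-degrading enzyme Hmox1 was at 90.9 ± 17.0 TPM, in cells where the haemoglobin receptor Cd163 was at 0.62 TPM, and the tetraspanin Cd9 was at 48.3 ± 16.3 TPM.

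Genes that limit or direct these receptors were the last lists. Of 8 genes of shedding and inhibition, 4 were called above and 1 below (limma, median log2 level 1.70): the inhibitory receptor Sirpa at 488 ± 139 TPM, its ligand Cd47 at 72.0 ± 27.9 TPM, and the sheddases Adam17, which cleaves Mertk and Axl, at 31.2 ± 13.7 TPM and Adam10 at 19.1 ± 5.85 TPM. Of 12 lineage and lipid-sensing regulators, 7 were called above and 1 below (median log2 level 1.33), with Spi1, which encodes PU.1, at 73.7 ± 18.0 TPM, Maf at 70.8 ± 12.2 TPM, Cebpb at 40.5 ± 16.1 TPM and Irf8 at 40.2 ± 8.75 TPM.

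**Figure D5:**
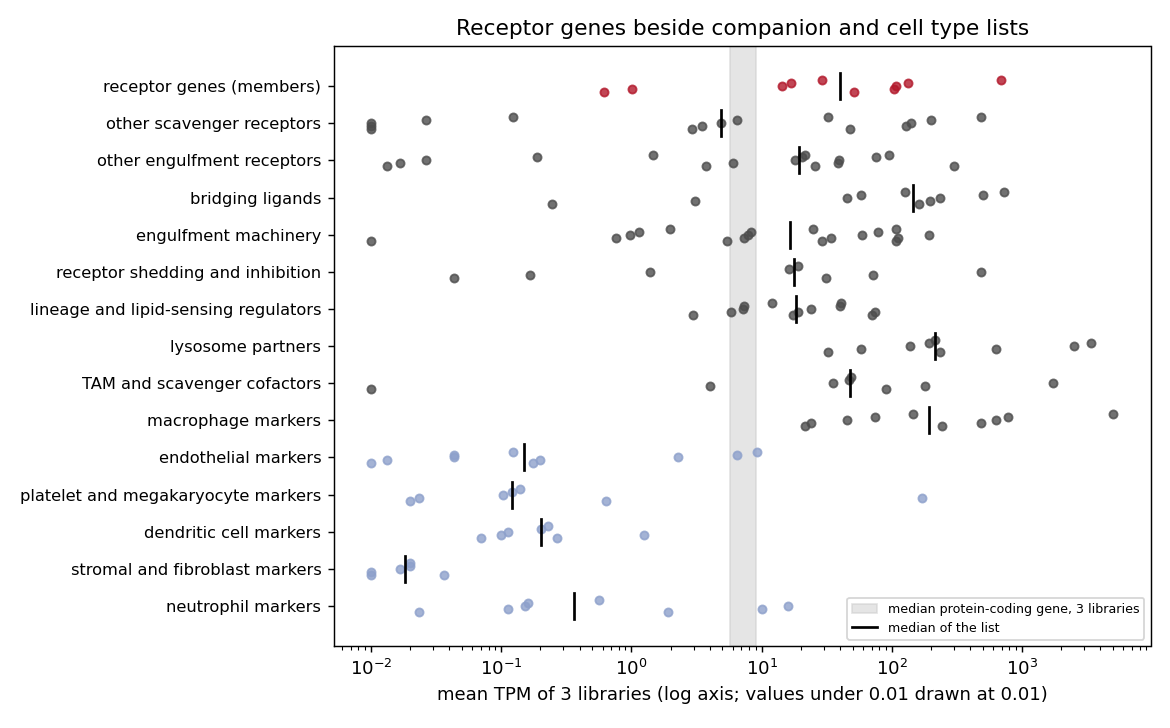
Mean TPM of 3 libraries (log axis) for each gene of the receptor set and of the companion and cell type lists, with a black bar at the median of each list and the grey band at the median protein-coding gene of the 3 libraries. The receptors run from 0.62 to 693 TPM, lysosome partners and macrophage markers lie to the right of the band, and all 6 stromal markers lie under 0.1 TPM.

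The protein-coding genes nearest in level to the 3 most abundant receptors were found by the smallest value of the largest log2 difference over the 3 libraries. For Cd68 they were Actg1 (0.16) and Rplp1 (0.19), and for Stab1 they were Atp6ap1 (0.06) and Abhd12 (0.09). For Cd36 even the nearest, Lrp1 (0.38) and Thbs1 (0.44), were farther away. Lrp1 stood at 146, 98.3 and 176 TPM and Thbs1 at 138, 87.2 and 154 TPM, both highest in replicate 3 as Cd36 was, though by a smaller margin. Since they were picked for closeness to Cd36 in these same libraries, that likeness follows in part from the choice.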

How the data were processed

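The authors deposited 3 tables for each of 3 libraries. A gene table and a transcript table hold expected counts and TPM, per the file headers, in columns named as RSEM writes them. The transcript table also gives, per the file headers, the percent of gene TPM in each transcript. The second deposited transcript table holds estimated counts and TPM in columns named as kallisto writes them. The deposited description files name mm10 and GENCODE M21. The use of strand and the versions of the aligner and quantifiers were not given in the sources used here. Overlapping and antisense genes are therefore uncertain.

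The members and the companion lists were chosen with earlier results of these data known. Rows that are not annotated genes (0.260, 0.0933 and 0.0577% of counts) were left out. The level test was treat with a trended prior in limma 3.58.1 under R 4.3.3. It used log2(TPM + 0.1) less the median of that library over protein-coding genes of at least 1 TPM on average. The band was 1, with Benjamini-Hochberg adjustment at 0.05 over 9123 genes. The log2(TPM + 0.1) scale understates differences of low genes. Expected counts were rounded, filtered with filterByExpr and scaled by TMM in edgeR 4.0.16 for BCV (13026 genes), with DESeq2 1.42.0 as an alternative. Pairs used an exact sign-flip permutation test (scipy 1.17.1). The scripts were tested on simulated data.

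Genes were named by a rule: all members, their transcripts with at least 10% of gene TPM on average, the 4 most abundant genes of each companion list, macrophage markers, other cell type markers of at least 1 TPM, and the 2 genes nearest in level to each of the 3 most abundant members. Some genes that the rule names are not reported here. Exceptions are marked, apart from the markers Pecam1 and Cdh5, the transcript Cd36-205 and Gulp1, which were likewise singled out with their values known. Scarb2 and Stab2 stand in more than 1 list, as do Cd14, Itgam and Spi1. Sequences come from GENCODE M21 transcripts and RefSeq promoters. With 1 group of 3 libraries, no conditions were compared.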

Additional observations from a re-analysis of the deposited data

How the results depend on the processing

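With no filter on low values 5403 genes were called above and 5929 below the median gene, with at least 5 TPM 1254 and 491, and 1427 were called below with the second transcript table. Members called below were 0 (limma) with the second table, at 5 TPM and over basic transcripts, since Marco then left the test. Axl reversed to -0.11 at 5 TPM (adjusted p = 1) and was called above with no filter (2.39), as was Scarb1 (2.73). With no filter 1 member was called below, and this was Cd163, since Marco was not called there (-1.21, limma adjusted p = 0.25). Basic transcripts were added as an alternative after seeing the Stab1 fragments. Leaving out each replicate gave 2329 to 2378 genes above, 2106 to 2195 below, and 6 to 7 members above. Of the alternatives for member levels, 71 kept their result, called or not, 4 gained a call and 2 lost one. The remaining 1, Axl at 5 TPM, changed sign but was called in neither setting. Settings in which Marco left the test are not in this tally. All 28 for the pairs kept their direction, though not always their size. Mrc1 over Cd163 was 5.61 with the second table, against 7.17 in the main setting. Of 76 transcript shares 16 moved, all with the second table. DESeq2's dispersion gave BCV of 0.547 for Cd36, 0.371 for Axl and 0.0650 for Cd68. Where no construction of the alternative shows it, the cause was not tested. No paired analysis was possible because there is 1 group. The spread between 3 libraries limits every value.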
